A study of Rattus norvegicus and Bos taurus with 12 samples.

Results

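Solute carriers are membrane proteins that move sugars, amino acids, lactate, ions, nucleosides, metals and other small molecules across the plasma membrane and the membranes of organelles. They were taken from both deposited tables by symbol: every gene whose symbol began with Slc and a digit, without the mitochondrial Slc25a family and without Slc2a1, Slc2a3 and Slc8a1. This left 120 of the 144 Slc symbols among 7052 listed genes in adult rat ventricular myocytes (ARVM), and 46 of 57 among 2115 listed genes in bovine cardiac fibroblasts (Cfib). The rule uses no measured value, although it was set with earlier results of these data known. 3 of the 120 and 2 of the 46 (Slc4a1ap, Slc9a3r1 and Slc9a3r2) encode adaptor or scaffold proteins named after an exchanger, so 117 and 44 were carriers.

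The study asked how Cfib differ in pulmonary hypertension (PH), and what medium conditioned by such cells (PH-CM) does to cardiomyocytes. RNA was sequenced in 12 libraries, 3 in each of 4 groups. Cfib were grown from the right ventricle of neonatal calves, either controls at the ambient altitude of Denver (CO) or calves made hypertensive by hypobaric hypoxia (PH), and were kept without serum before collection. ARVM came from healthy adult Sprague Dawley rats and were either freshly isolated or kept for 7 days in PH-CM. The labels name both treatments as serum of cattle from low or high altitude. The study instead describes conditioned medium, and control ARVM that were freshly isolated and untreated. Groups are named here as in the study, and this conflict could not be settled. No library of ARVM cultured for the same time in medium from CO Cfib was used here, so time in culture, loss of the tissue setting and PH-CM cannot be told apart. The study describes the Cfib libraries of a group as coming from separate animals. For ARVM no source used here says so, and their p-values then measure the spread between these libraries, which may be technical.

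ARVM values are read counts divided by one size factor per library (normalized counts). The reads recovered from them came to between 12122463 and 18842171 per library over the listed genes. They are not divided by transcript length, so levels of different genes are not compared in ARVM. Cfib values were taken to be scaled by gene length and library, although no source used here names their unit. The depth behind them is unknown. Libraries are given in the order con4, con5 and con6 for freshly isolated ARVM and ha2, ha209 and ha211 for PH-CM, and 1 to 3 for CO and PH. Fold changes are differences of log2(value + 1) between group means with their SE from limma, n is 3 libraries per group throughout, and a gene is called when its Benjamini-Hochberg adjusted p over its whole table is under 0.05. On this scale the change of low values is understated.

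Both tables hold only genes that the study had selected for a difference, and the groups did not overlap for any of the 7052 or 2115 genes (100% in each). Almost every gene was therefore called, 97.6% in ARVM and 97.5% in Cfib, and calls of the carriers read against that background carry little. Direction and size are described instead, beside those of all listed genes. Markers of cell types also moved. In ARVM all 9 listed of 10 cardiomyocyte markers fell (summed normalized counts of 1440000 to 1500000 in freshly isolated ARVM and 127000 to 154000 in PH-CM), and none of them was at 0 in PH-CM. All 10 fibroblast markers rose (1450 to 1960 against 87100 to 130000), as did all 9 listed macrophage markers (229 to 301 against 7660 to 11400) and 7 of 10 markers of smooth muscle and pericytes. Of the 10 endothelial markers 9 fell, and Hbb, Hba1 and Hbb-b1 of red cells had no read in PH-CM. In bulk RNA, fewer cells of a type and less RNA per cell cannot be told apart. The part of these markers in any result below was not tested.

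A cardiomyocyte takes up glucose mainly through the insulin-responsive transporter GLUT4 and exchanges lactate with the blood through monocarboxylate transporters. It keeps its pH and cell volume with bicarbonate exchangers and chloride cotransporters, and imports creatine and taurine in bulk. Proliferating and matrix-producing cells are known instead for high exchange of amino acids through heteromeric carriers, in which a heavy chain such as 4F2hc carries a light chain such as LAT1 to the cell surface.

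In dedifferentiated ARVM the glucose transporter Slc2a4 fell 21.2-fold, the iron exporter Slc40a1 2.4-fold and the anion exchanger Slc4a3 2.03-fold, while the lactate exporter Slc16a3 rose 9.83-fold and most listed amino acid carriers and zinc importers were higher. Of the 120 members 75 were called higher and 41 lower (background 53.9% higher and 43.7% lower of all listed genes), and 4 did not pass the test, among them Slc2a6, Slc38a9 and Slc47a2. The 79 with a higher mean in PH-CM were 65.8% of the members, against 55.1% of all listed genes. The median log2 fold change of the members was 0.73 against 0.37 over the table, and 52 rose and 20 fell by at least 1 on the log2 scale (background 32.3% and 16.0%, 48.3% either way). After rescaling each library by its median ratio to the mean profile, 74 members were higher and 41 lower (background 53.4% and 44.1%). By class, amino acid carriers (20 of 28 with a higher mean, median 0.99) and monocarboxylate carriers (3 of 3, median 3.26) lay above the table median, while ion carriers lay below it (7 of 17, median −0.42). Metal carriers had a median of 0.54 with 14 of 21 higher, and glucose (5) and nucleoside carriers (3) were few. 7 members had no read in any freshly isolated library and 1 had none in PH-CM. Their folds are lower bounds, computed with 3 reads in the whole group in place of 0.

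**Figure D1:**
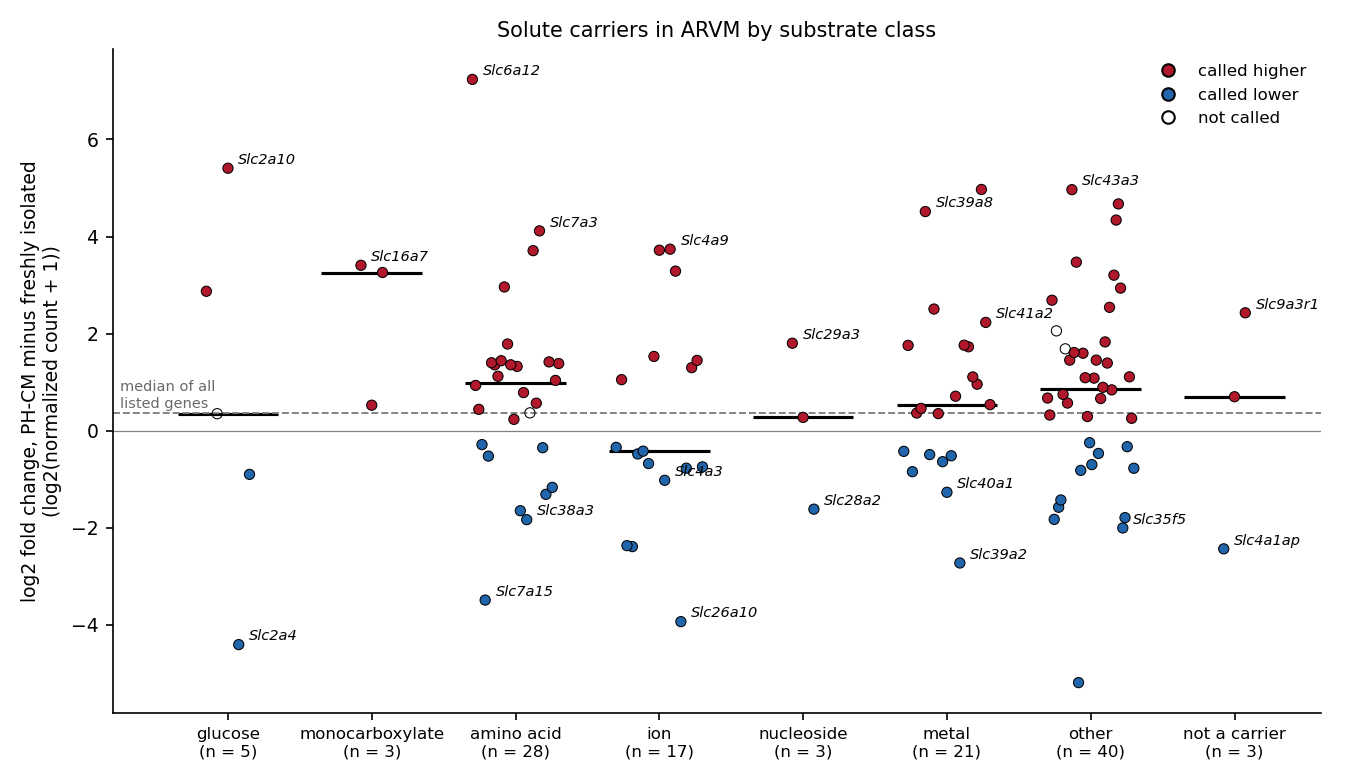
Log2 fold change of each solute carrier in ARVM, PH-CM minus freshly isolated (y axis, log2(normalized count + 1)), by substrate class (x axis). Each point is 1 gene (red called higher, blue called lower, open not called), black bars are class medians and the dashed line is the median of all listed genes (0.37). The amino acid points lie mostly above that line, the ion points mostly below 0, and Slc2a4 stands at −4.40.

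Slc2a4, which encodes GLUT4, had normalized counts of 4757, 4531 and 4374 in freshly isolated ARVM and 215, 229 and 199 in PH-CM. All PH-CM libraries were far below all freshly isolated ones, with a ratio of the means of 21.2 and a log2 fold change of −4.40 ± 0.08, limma adjusted p = 4.37e-08. Only 50 of the 7052 listed genes had a more negative log2 fold change. Slc2a12 (GLUT12, a second glucose transporter of muscle and fat) fell less, from 325 ± 22.5 to 177 ± 44.8 (mean ± SD), a log2 fold change of −0.90 ± 0.20, limma adjusted p = 0.00311. Slc2a10, whose product GLUT10 sits on internal membranes, went the other way. It had 0, 4.28 and 0 in freshly isolated ARVM and 89.2, 45.7 and 94.8 in PH-CM, that is 1 freshly isolated library with any read, and a log2 fold change of 5.41 ± 0.70, limma adjusted p = 0.000191. The fructose transporter Slc2a5 (GLUT5) stood at 0, 0 and 4.13 in freshly isolated ARVM and 13.6, 6.04 and 18.6 in PH-CM (log2 fold change 2.87 ± 0.73, limma adjusted p = 0.00609), a rise in few reads. Slc2a6 (GLUT6) did not pass the test (means 95.9 and 122, limma adjusted p = 0.125).

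The 3 listed monocarboxylate carriers were all called higher. Slc16a1 (MCT1, the common lactate and pyruvate carrier) was not listed in ARVM, so these 3 do not describe the whole class. Slc16a3, the gene of MCT4, which exports lactate from glycolytic cells, had 68.1, 88.9 and 71.3 in freshly isolated ARVM and 549, 904 and 790.5 in PH-CM. Every PH-CM library held over 6 times the highest freshly isolated one, and the means differed 9.83-fold with a log2 fold change of 3.26 ± 0.22, limma adjusted p = 5.48e-06. Slc16a7 (MCT2, a high-affinity lactate and pyruvate carrier) had 7.91, 5.36 and 0 in freshly isolated ARVM and 43.1, 31.9 and 45.7 in PH-CM, low throughout, with a log2 fold change of 3.41 ± 0.78, limma adjusted p = 0.00371. The orphan Slc16a13 rose least, from 191, 140.3 and 125 to 195, 221 and 234, and the nearest libraries of the groups almost met. Its limma adjusted p of 0.0358 rose above 0.05, up to 0.107, without freshly isolated library con5 or con6 or without any 1 of the 3 PH-CM libraries. Among partners of sugar and lactate handling, Ldhb fell by 2.01 and Ldha by 0.31 on the log2 scale (lactate dehydrogenase subunits), and Pdk1 and Pdk4 (pyruvate dehydrogenase kinases) fell by 2.09 and 2.02, while the insulin receptor substrates Irs1 and Irs2 rose by 0.78 and 2.39. Hk2 fell too, so that 5 of the 7 listed genes of that list of 9 were called lower and 2 higher (median −0.67). Emb, which encodes embigin, a chaperone of MCT2, rose by 5.38, and Txnip, which promotes the removal of glucose transporters from the surface, fell by 0.72. Of the 6 listed of 10 genes of partners and endocytosis 2 were called higher and 4 lower (median −0.59).

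**Figure D2:**
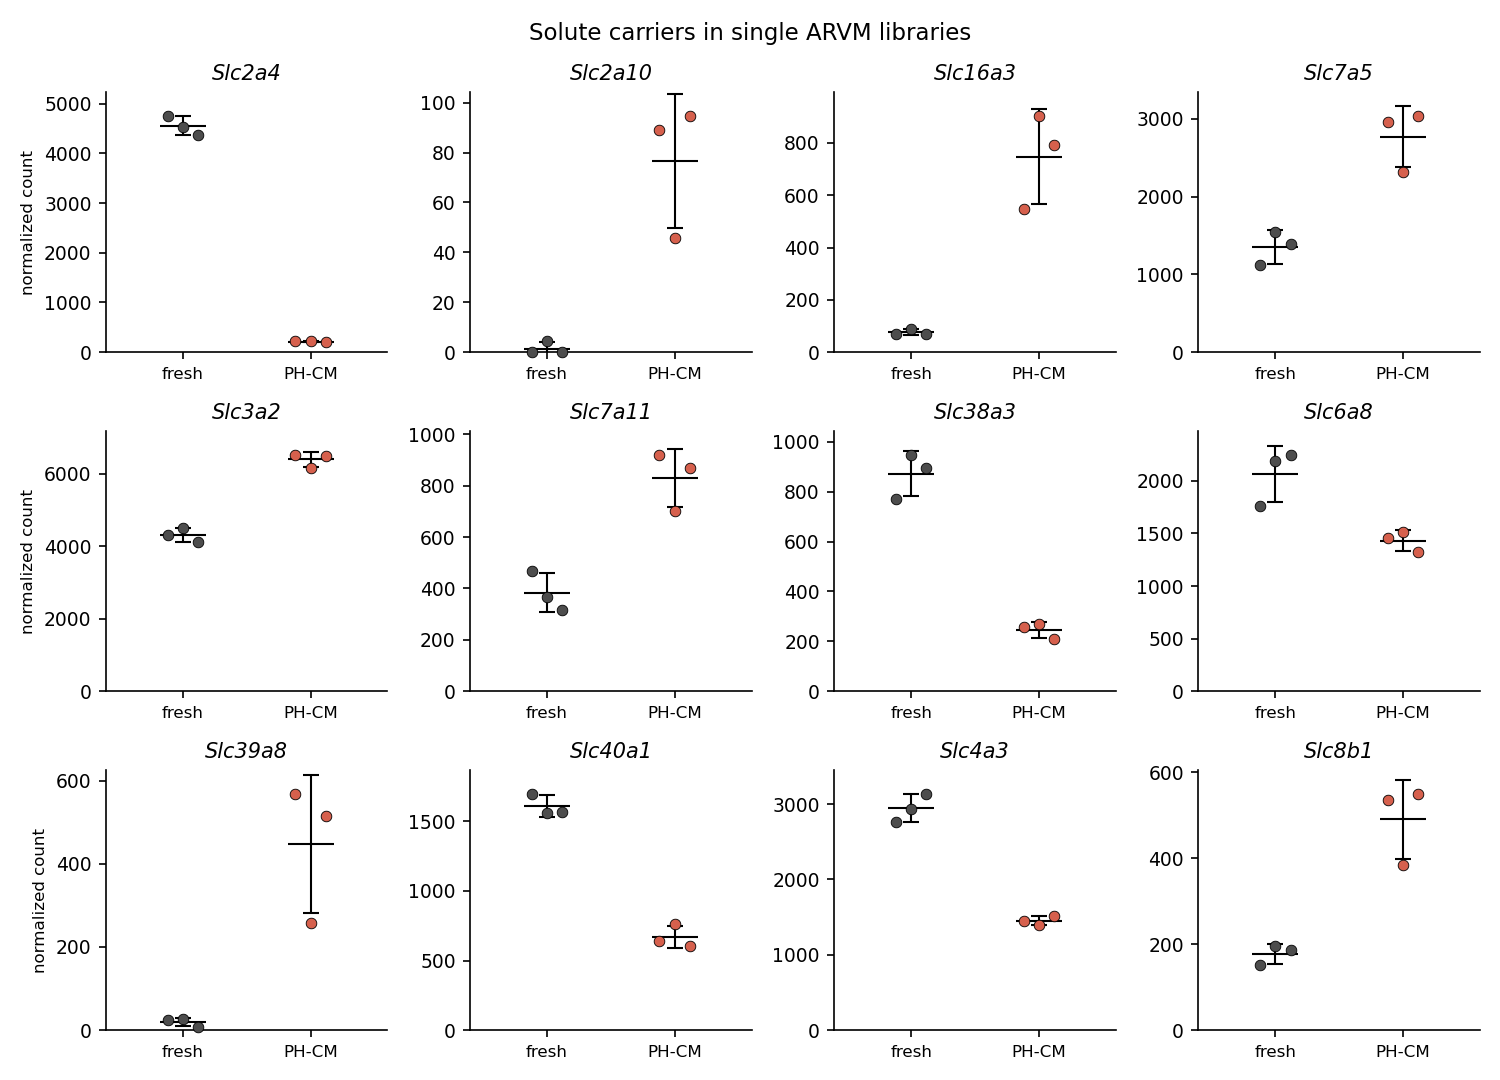
Normalized count (y axis, linear from 0) of 12 carriers in each of the 3 freshly isolated (grey) and 3 PH-CM (red) ARVM libraries, with the mean and SD. The groups are apart in every panel. Slc39a8 and Slc2a10 have 1 PH-CM library well below the other two.

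Amino acid carriers were the largest named class, with 19 called higher, 8 lower and the lysosomal arginine sensor Slc38a9 not called. The heavy chain 4F2hc and its light chains LAT1 and xCT were higher. Slc7a5, the light chain LAT1 that brings in leucine and other large neutral amino acids, had 1122, 1549 and 1386 in freshly isolated ARVM and 2959.9, 2317 and 3041 in PH-CM (2.05-fold, a log2 fold change of 1.04 ± 0.14, limma adjusted p = 0.000262). Slc3a2, the heavy chain 4F2hc, had 4308, 4501 and 4117 in freshly isolated ARVM and 6520.3, 6158 and 6486 in PH-CM (1.48-fold, a log2 fold change of 0.57 ± 0.06, limma adjusted p = 4.61e-05). Slc7a11, the light chain xCT that exchanges glutamate for cystine, had 467, 366 and 317 in freshly isolated ARVM and 921, 702 and 868 in PH-CM (2.17-fold, a log2 fold change of 1.12 ± 0.17, limma adjusted p = 0.000384). For these 3 genes the lowest PH-CM library was at least 1.3 times the highest freshly isolated library. Over the Slc7 family, chosen after its values were seen, 7 of 9 listed members were called higher and 2 lower (median 1.42). The light chain Slc7a6 (y+LAT2), named after its values were seen, was 1 of these 2, at 903 ± 51.9 in freshly isolated ARVM and 742 ± 58.9 in PH-CM (limma adjusted p = 0.0148). Its call was lost without freshly isolated library con6 (limma adjusted p = 0.0515) and without PH-CM library ha2.

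Neutral exchangers and importers followed. Slc1a4 (ASCT1, which exchanges serine, alanine, cysteine and threonine) rose from 172 ± 28.7 to 430.4 ± 44.7 (mean ± SD), a log2 fold change of 1.33 ± 0.17, limma adjusted p = 0.000181. Slc1a5 (ASCT2, a glutamine exchanger) rose 1.36-fold (log2 fold change 0.44 ± 0.10, limma adjusted p = 0.00307). Slc38a4 (SNAT4) went from 135 ± 9.67 to 361 ± 52.4, Slc36a4 (PAT4) from 109.9 ± 36 to 275 ± 37.5 and Slc43a1 (LAT3) from 99.2 ± 7.06 to 173 ± 29.1, each called higher. The taurine importer Slc6a6 changed little (1.18-fold, limma adjusted p = 0.0261), and its call was lost without freshly isolated library con5 or con6 or PH-CM library ha2 or ha211 (up to 0.0819) and by DESeq2.

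The steepest rises of the class were in genes with few or no reads in freshly isolated ARVM. Slc6a12 (BGT1, an importer of betaine and GABA) had no read in the 3 freshly isolated libraries and 163, 110.4 and 186 in PH-CM, at least 129-fold higher. Slc7a3 (CAT3, a carrier of arginine and lysine) had 26.9, 0 and 5.17 in freshly isolated ARVM and 107, 82 and 99 in PH-CM, with freshly isolated library con5 at 0, and Slc6a7 (PROT, a proline importer) had 7.91, 0 and 0 in freshly isolated ARVM and 32.5, 25.9 and 21.2 in PH-CM. Their limma adjusted p were 1.01e-06, 0.00601 and 0.00342.

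Of the 8 that fell, 5 are named by the rule. Slc38a3 (SNAT3, a glutamine transporter) had 772, 949 and 896 in freshly isolated ARVM and 257, 269 and 209.04 in PH-CM, 3.56 times lower, with a log2 fold change of −1.83 ± 0.14, limma adjusted p = 9.29e-06. Slc3a1 (rBAT, the heavy chain of cystine and dibasic amino acid uptake) had 603, 421 and 398 in freshly isolated ARVM and 156, 184 and 113 in PH-CM and a log2 fold change of −1.65 ± 0.23, limma adjusted p = 0.00031, opposite to the heavy chain Slc3a2. Slc7a15 had 7.91, 16.1 and 8.26 in freshly isolated ARVM and no read in PH-CM, at least 13.1-fold lower. Slc6a8, the creatine importer that supplies the phosphocreatine buffer of muscle, had 1765, 2185 and 2249.9 in freshly isolated ARVM and 1462, 1514 and 1324 in PH-CM (a log2 fold change of −0.52 ± 0.10, limma adjusted p = 0.00185). Slc38a2 (SNAT2, the amino acid-regulated importer), one of the 5 members with the most reads in either group, fell from 11194 ± 485 to 8798 ± 595 (log2 fold change −0.35 ± 0.07, limma adjusted p = 0.00181).

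Several of the exchangers that rose, Slc7a11, Slc7a5, Slc3a2 and Slc1a4 among them, are textbook targets of the amino acid response, in which ATF4 induces genes of amino acid uptake and synthesis. Of the 15 genes of that response on the list, 11 were listed in ARVM, without Atf4, Ddit3, Cebpb and Eif2ak4. Of these 11, 10 were called higher and 1 (Vldlr) lower (median 1.64 on the log2 scale), beside 53.9% and 43.7% of all listed genes. Asns rose by 2.36, Phgdh by 3.70, Psat1 by 2.21 and Psph by 1.64 (enzymes of asparagine and serine synthesis). Chac1 rose by 1.34 (a glutathione-degrading enzyme) and Trib3 by 0.89 (a pseudokinase). The amino acid-regulated importer Slc38a2 fell (log2 fold change −0.35). Whether the carriers rose through this response was not tested. Genes of lysosomal amino acid sensing moved less, with 3 of the 9 listed of 20 called higher and 6 lower (median −0.28, from −0.75 for Sesn1 to 0.86 for Fnip2).

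The promoters of these 4 exchangers are shown because the genes rose together, as the 250 bases before the annotated start in the rat assembly GRCr8 of RefSeq, 5′ to 3′ on the strand of the gene. Slc3a2 has 2 annotated starts. Capitals mark each match on either strand to TGATGNAA, the core of the element through which ATF4 and its partners act, or to ACGTG, the core of the hypoxia response element, which is also contained in E boxes, so that the 2 strands of CACGTG give overlapping matches.
Slc1a4 (chr14:98761563-98761812, minus strand): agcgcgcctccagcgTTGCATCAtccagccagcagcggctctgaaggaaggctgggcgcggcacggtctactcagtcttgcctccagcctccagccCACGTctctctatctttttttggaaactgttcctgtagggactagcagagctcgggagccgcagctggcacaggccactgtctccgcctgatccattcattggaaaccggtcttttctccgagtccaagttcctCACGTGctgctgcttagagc
Slc3a2, first start (chr1:215048065-215048314, minus strand): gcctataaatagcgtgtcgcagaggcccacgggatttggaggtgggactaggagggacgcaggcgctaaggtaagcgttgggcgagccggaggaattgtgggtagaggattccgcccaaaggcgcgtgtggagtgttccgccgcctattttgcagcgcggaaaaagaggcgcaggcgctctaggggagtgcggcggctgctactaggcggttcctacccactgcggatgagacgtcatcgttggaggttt
Slc3a2, second start (chr1:215039671-215039920, minus strand): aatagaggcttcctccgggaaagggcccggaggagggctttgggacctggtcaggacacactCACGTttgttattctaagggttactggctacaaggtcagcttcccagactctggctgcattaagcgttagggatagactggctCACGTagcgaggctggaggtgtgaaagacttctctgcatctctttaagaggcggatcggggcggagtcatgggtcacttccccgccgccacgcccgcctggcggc
Slc7a5 (chr19:66872413-66872662, minus strand): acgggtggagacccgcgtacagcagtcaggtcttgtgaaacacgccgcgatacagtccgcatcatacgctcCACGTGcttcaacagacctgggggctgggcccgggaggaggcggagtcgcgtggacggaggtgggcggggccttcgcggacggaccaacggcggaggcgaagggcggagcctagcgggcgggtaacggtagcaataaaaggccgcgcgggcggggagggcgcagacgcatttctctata
Slc7a11 (chr2:136668265-136668514, minus strand): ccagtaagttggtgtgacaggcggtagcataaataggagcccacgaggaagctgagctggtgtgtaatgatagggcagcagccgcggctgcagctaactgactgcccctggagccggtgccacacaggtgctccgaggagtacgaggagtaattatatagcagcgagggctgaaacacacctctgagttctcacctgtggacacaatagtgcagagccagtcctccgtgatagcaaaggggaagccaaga

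TGATGNAA was found in the window of Slc1a4, beginning 235 bases before the start, and in no window of the other 3 genes. Promoter windows were matched by symbol for 91 of the 120 members. TGATGNAA lay in those of 3 (3.30%: Slc1a4, Slc35a2 and Slc9a9, all 3 called higher), against 3.58% of all 27457 genes with a window and 1.84% of those listed in ARVM. ACGTG lay in the windows of Slc1a4, of Slc7a5 and of the second start of Slc3a2. It lay in the windows of 28 members (30.8%), in 28.6% of those called higher and 34.4% of those called lower, against 18.1% of all genes and 22.3% of those listed. A match describes these letters only.

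Among ion carriers more members fell (10 of 17) than rose (7), and all were called. Among changes of at least 1 on the log2 scale the balance was the reverse, with 7 higher and 4 lower. Slc4a3, the chloride-bicarbonate exchanger AE3 of heart and brain, had 2758, 2937 and 3137 in freshly isolated ARVM and 1451, 1389.9 and 1509 in PH-CM, a ratio of 2.03 with a log2 fold change of −1.02 ± 0.07, limma adjusted p = 5.07e-06. Slc12a2 (NKCC1, which brings in sodium, potassium and chloride) went from 654 ± 40.4 to 383 ± 33.4 and Slc20a2 (PiT2, a phosphate importer) from 2993 ± 157 to 1786 ± 63.9. Slc26a10, an anion exchanger family member, fell most of the class, from 272, 191 and 128 to 9.07, 19 and 8.46 (a log2 fold change of −3.93 ± 0.41, limma adjusted p = 6.22e-05). Slc9b2 (NHA2, a sodium-proton exchanger of organelles) fell to 8.32, 44.9 and 6.77 from 82.3, 68.6 and 77.5, with PH-CM library ha209 well above the other two.

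Slc4a1 encodes AE1, the anion exchanger of red cells, and had 55.4, 42.8 and 60.9 in freshly isolated ARVM and 9.07, 23.3 and 3.39 in PH-CM (a log2 fold change of −2.39 ± 0.60, limma adjusted p = 0.00562). Red-cell globin genes went from summed erythroid marker counts of 2100 to 2490 to no read of Hbb, Hba1 or Hbb-b1 in PH-CM, and whether the fall of Slc4a1 belongs to red cells was not tested.

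The ion carriers that rose included several of organelles. Slc8b1 (NCLX, which returns calcium from mitochondria in exchange for sodium) had 152, 195 and 186 in freshly isolated ARVM and 535, 385 and 550.1 in PH-CM (2.76-fold, a log2 fold change of 1.45 ± 0.18, limma adjusted p = 0.000171). Slc9a9 (NHE9 of late endosomes) and Slc9a7 (NHE7 of the trans-Golgi network) were called higher from 44.6 to 114 and from 2.5 to 26, and without PH-CM library ha2 the limma adjusted p of Slc9a9 was 0.0507. Slc26a2, the sulfate importer that proteoglycan sulfation needs, rose 2.47-fold from 77.3 ± 11.3 to 191 ± 17.5. At the plasma membrane Slc4a4 (NBCe1, a sodium-bicarbonate cotransporter) had 147, 217 and 239 in freshly isolated ARVM and 424, 450.4 and 359.7 in PH-CM (a log2 fold change of 1.05 ± 0.20, limma adjusted p = 0.00166), opposite in direction to Slc4a3. Slc4a9 (AE4) was without reads in freshly isolated ARVM and stood at 10.6, 9.49 and 18.6 in PH-CM, at least 10.9-fold higher. Of the kinases and carbonic anhydrases that work with these carriers 10 of 20 symbols were listed, 3 were called higher and 6 lower (median −0.52). The 20 symbols count each carbonic anhydrase under both its human and its rodent name. Wnk3 rose by 2.45 and Wnk2 fell by 1.84 (chloride-sensing kinases), the kinase Sgk1 fell by 1.71, Car4 and Car14 fell by 3.86 and 1.89, and Car2 and Car9 rose by 2.22 and 3.65.

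Zinc importers of the Slc39 family, chosen after its values were seen, were 9 of the 14 metal carriers called higher, with 9 of 12 called higher and 3 lower (median 0.91). Slc39a8 (ZIP8, which imports zinc and manganese) had 23.7, 26.8 and 8.26 in freshly isolated ARVM and 569, 258 and 515 in PH-CM. PH-CM library ha209 held under 60% of either other PH-CM library and still over 9 times the highest freshly isolated one, and the groups differed by a log2 fold change of 4.51 ± 0.49, limma adjusted p = 7.22e-05. Slc39a4 (ZIP4) was without reads in freshly isolated ARVM and stood at 38.6, 28.5 and 25.4 in PH-CM, at least 26-fold higher. Slc39a13 (ZIP13, needed in connective tissue) went from 364 ± 24.1 to 799.6 ± 171, Slc39a7 (ZIP7, which releases zinc from the ER) from 3068 ± 237 to 5021 ± 343 and Slc39a14 (ZIP14, an importer of zinc, iron and manganese) from 1537 ± 64.2 to 1983 ± 173. Against this, Slc39a2 (ZIP2) fell 6.64 times, from 595, 564 and 600.2 to 92.3, 95.8 and 77. Slc39a10 (ZIP10) fell from 585 ± 46.6 to 326 ± 20.3 and Slc39a1 (ZIP1) from 6549 ± 236 to 4909 ± 635.

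Iron carriers went both ways. Slc40a1, ferroportin, the iron exporter of cells, had 1698, 1561 and 1567 in freshly isolated ARVM and 644, 761 and 607 in PH-CM (2.4 times lower, a log2 fold change of −1.27 ± 0.10, limma adjusted p = 1.09e-05). Slc11a2 (DMT1, which imports ferrous iron) went from 1168 ± 47.8 to 834 ± 96.4 (a log2 fold change of −0.49 ± 0.09, limma adjusted p = 0.00158). Slc11a1 (NRAMP1 of phagosomes) rose from 44.3, 43.9 and 50.6 to 155, 121 and 201, in the same libraries in which the 9 listed macrophage markers rose. The copper importer Slc31a1 (CTR1) was 1.28-fold higher, and without PH-CM library ha2 its limma adjusted p went from 0.0118 to 0.0512. Slc41a2, a magnesium transporter, rose 4.65-fold (a log2 fold change of 2.23 ± 0.22, limma adjusted p = 4e-05). Among genes of metal handling 10 of 21 symbols (Ftl and Ftl1 both counted) were listed, 6 called higher and 4 lower (median 0.59). The transferrin receptor Tfrc rose by 0.92, ferritin Fth1 by 1.57 and ceruloplasmin Cp by 3.94. Hmox1 fell by 0.86, the metallothionein Mt1a fell by 0.58 and Mt3 fell by 3.95.

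Of the 3 nucleoside carriers 2 rose and 1 fell. Slc28a2 (CNT2, which concentrates purine nucleosides) had 229, 195 and 131 in freshly isolated ARVM and 57.5, 43.1 and 79.6 in PH-CM, a fall with a log2 fold change of −1.61 ± 0.31, limma adjusted p = 0.00161. Slc29a3 (ENT3, of lysosomes) had 63.3, 40.7 and 39.3 in freshly isolated ARVM and 139.9, 164 and 196 in PH-CM, a rise with a log2 fold change of 1.80 ± 0.27, limma adjusted p = 0.000436. Slc29a1 (ENT1, the equilibrative carrier of the plasma membrane) rose by 0.27 ± 0.11 on the log2 scale (limma adjusted p = 0.0405), and this call was lost without any 1 freshly isolated library and without PH-CM library ha2 or ha209 (up to 0.128), by edgeR, by DESeq2 and after the rescaling by median ratio. Of 8 listed genes of nucleoside metabolism out of 10, 4 were called higher and 4 lower (median 0.12). Adk (adenosine kinase) fell by 1.04 and Tk1 (thymidine kinase of dividing cells) rose by 3.53.

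Of the other 40 members 26 were called higher and 12 lower. Slc35f5, an orphan relative of the nucleotide sugar transporters and among the 5 members with the most reads in freshly isolated ARVM, had 5732, 5483 and 5117 in freshly isolated ARVM and 1464, 1411 and 1210.2 in PH-CM (4 times lower, limma adjusted p = 5.17e-07). The orphan Slc22a23 fell from 1137 ± 44.8 to 321 ± 22.8. Slc43a3 (ENBT1, a purine nucleobase carrier) rose from 0, 4.28 and 3.1 to 106, 82.8 and 72.8, and Slc22a18 from 0, 41.8 and 6.2 to 136, 105 and 174 with freshly isolated library con5 above the other two. Slc13a3 (NaDC3, a dicarboxylate cotransporter) was without reads in freshly isolated ARVM and was at least 21.9-fold higher in PH-CM (17.4, 21.6 and 38.9). Within the Slc35 family of nucleotide sugar transporters, chosen after its values were seen, 9 of 11 were called higher and 2 lower, with a median of 0.66. Of the 3 adaptors, Slc4a1ap (kanadaptin) fell from 6970.3 ± 1215 to 1290.4 ± 210.2, while Slc9a3r1 and Slc9a3r2 (NHERF1 and NHERF2, scaffolds of membrane transporters) rose 5.54-fold and 1.63-fold.

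In Cfib of PH calves, the lactate carriers SLC16A3 and SLC16A7 and the zinc importer SLC39A8 fell by more than 10 times while 6 of 7 amino acid carriers and 6 of 7 ion carriers rose. All 46 members were called, 33 higher and 13 lower (background 58.2% and 39.4% of all listed genes). The members had a median log2 fold change of 0.52 against 0.33 over the table, 71.7% had a higher mean in PH against 59.7%, and 10 rose and 4 fell by at least 1 (background 19.7% and 14.3%, 34.0% either way). The same rescaling as in ARVM moved the median of all listed genes from 0.33 to 0.07 and their calls from 1230 higher and 833 lower to 840 and 869. After it 24 members were called higher, 13 lower and 9 not (background 39.7% higher and 41.1% lower, 80.8% either way), and the members' median was 0.29. Rescaling lowered the log2 fold change of every member, so rises became smaller and falls larger. SLC43A1 went from 0.50 to 0.22, for example, and SLC35C1 from −0.18 to −0.43. Below, values after rescaling are given where a call was lost and for a few other members only. The 3 PH libraries were close to each other, with a median coefficient of variation over the members of 6.04% against 14.1% among CO. With the PH libraries averaged into 1 sample, 20 of the 46 members were called, 15 higher and 5 lower, beside 1041 of all 2115 genes. That fit has 1 sample in the PH arm, which is assumed to vary like the CO libraries. CO library 3 was the lowest of the CO libraries by over 1.5 times in 9 members. Without it 45 of the 46 were still called. Markers of cell types moved as well. The 4 listed fibroblast markers rose (summed values of 2010 to 2660 in CO and 6420 to 6720 in PH), as did the 4 listed macrophage markers (2.95 to 3.07 against 8.69 to 9.56, with C1QA and C1QB at 0 in CO). Of the 6 listed markers of smooth muscle and pericytes 5 rose, ACTA2 among them, and CNN1 fell (98.2 to 134 against 229 to 240), and the 1 listed endothelial marker, ESAM, fell (5.58 to 7.54 against 2.03 to 2.94). No cardiomyocyte marker was listed.

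**Figure D3:**
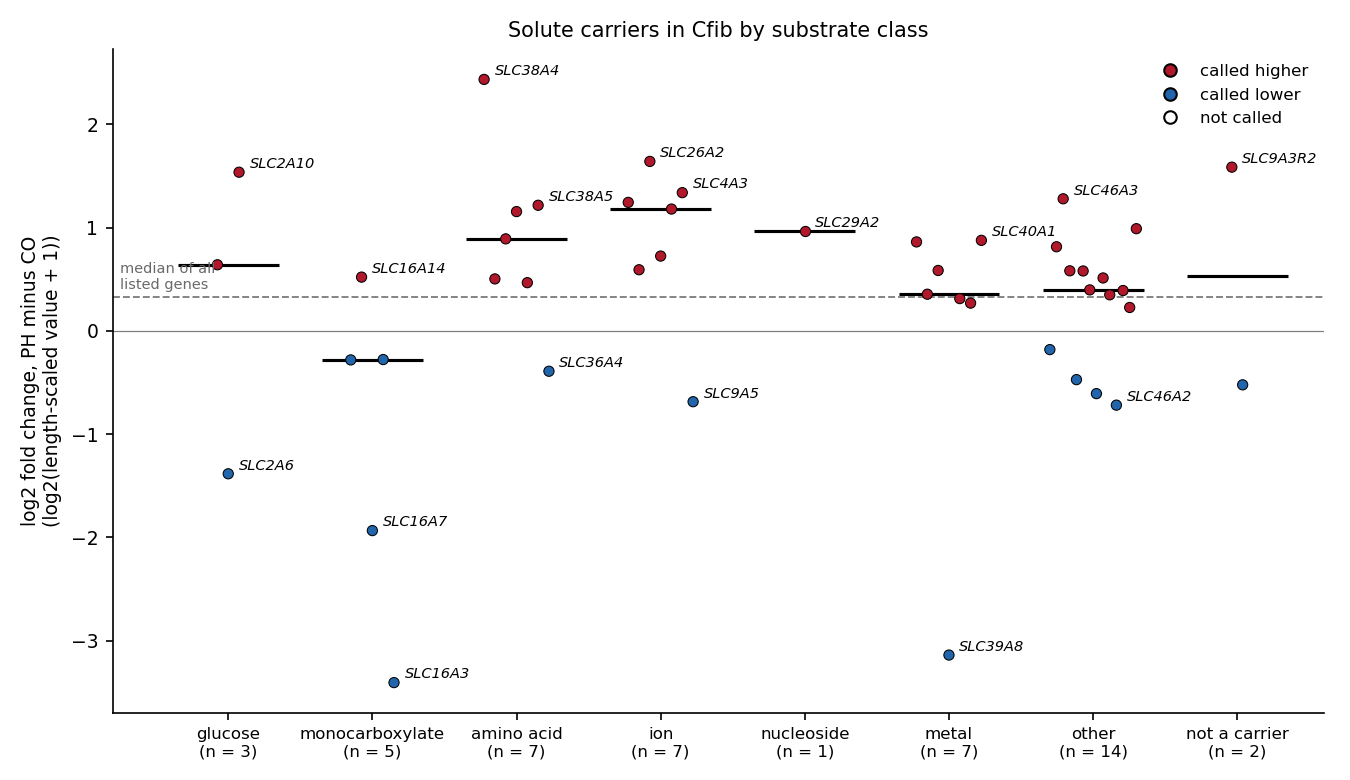
Log2 fold change of each solute carrier in Cfib, PH minus CO (y axis, log2(length-scaled value + 1)), by substrate class (x axis). Points are genes (red called higher, blue called lower), black bars class medians and the dashed line the median of all listed genes (0.33). SLC16A3 at −3.41 and SLC39A8 at −3.14 lie apart from all other members.

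Of 5 listed monocarboxylate carriers 4 fell, also after rescaling. SLC16A3 (MCT4) had 25.7, 44.3 and 38.2 in CO and 1.88, 2.52 and 2.92 in PH, 14.8 times lower, with a log2 fold change of −3.41 ± 0.22, limma adjusted p = 2.67e-05. SLC16A7 (MCT2) had 3.31, 6.07 and 4.33 in CO and 0.46, 0.357 and 0.468 in PH, 10.7 times lower (a log2 fold change of −1.93 ± 0.18, limma adjusted p = 0.000118). The groups were far apart in both. SLC16A1 (MCT1, the common lactate and pyruvate carrier) fell from 32.6, 35.8 and 32 to 27.1, 27.6 and 27.5 (a log2 fold change of −0.28 ± 0.06, limma adjusted p = 0.00544), a small step that became −0.56 after rescaling. SLC16A13 fell by 0.28, and its limma adjusted p of 0.027 rose above 0.05 without CO library 2 or PH library 1 or 3 (up to 0.0982). SLC16A14, an orphan, rose from 0.419 ± 0.134 to 1.04 ± 0.169. Beside them PDK1 fell by 0.79, PDK4 rose by 0.89 and HK1 (hexokinase) fell by 0.70, the 3 listed genes of sugar and lactate handling.

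Levels of different genes are compared here with the values taken as scaled by length. SLC16A3 was then the member of its class with the highest mean in CO (36.1 ± 9.48), close to SLC16A1 (33.5 ± 2.09). The CO libraries of the 2 genes overlapped. In PH the mean of SLC16A1 was 27.4 ± 0.266 and that of SLC16A3 2.44 ± 0.528, with no overlap. SLC16A7 was the next in CO (4.57 ± 1.4) and the lowest of the 5 in PH (0.428 ± 0.0617).

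Glucose carriers were 3. SLC2A6 (GLUT6, which sits on internal membranes) had 27, 26.3 and 35.9 in CO and 9.96, 11.5 and 10.5 in PH (a log2 fold change of −1.38 ± 0.13, limma adjusted p = 0.000133). SLC2A10 (GLUT10) rose from 4.38, 5.81 and 1.49 to 12.3, 12.6 and 11.3 (a log2 fold change of 1.54 ± 0.35, limma adjusted p = 0.0056), with CO library 3 well below the others. SLC5A2 (SGLT2, known from the kidney) was low in both groups and rose from 3.33 ± 0.453 to 5.73 ± 0.431. TXNIP, which acts on the surface level of glucose transporters, rose by 1.25, and TBC1D1 fell by 0.69.

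**Figure D4:**
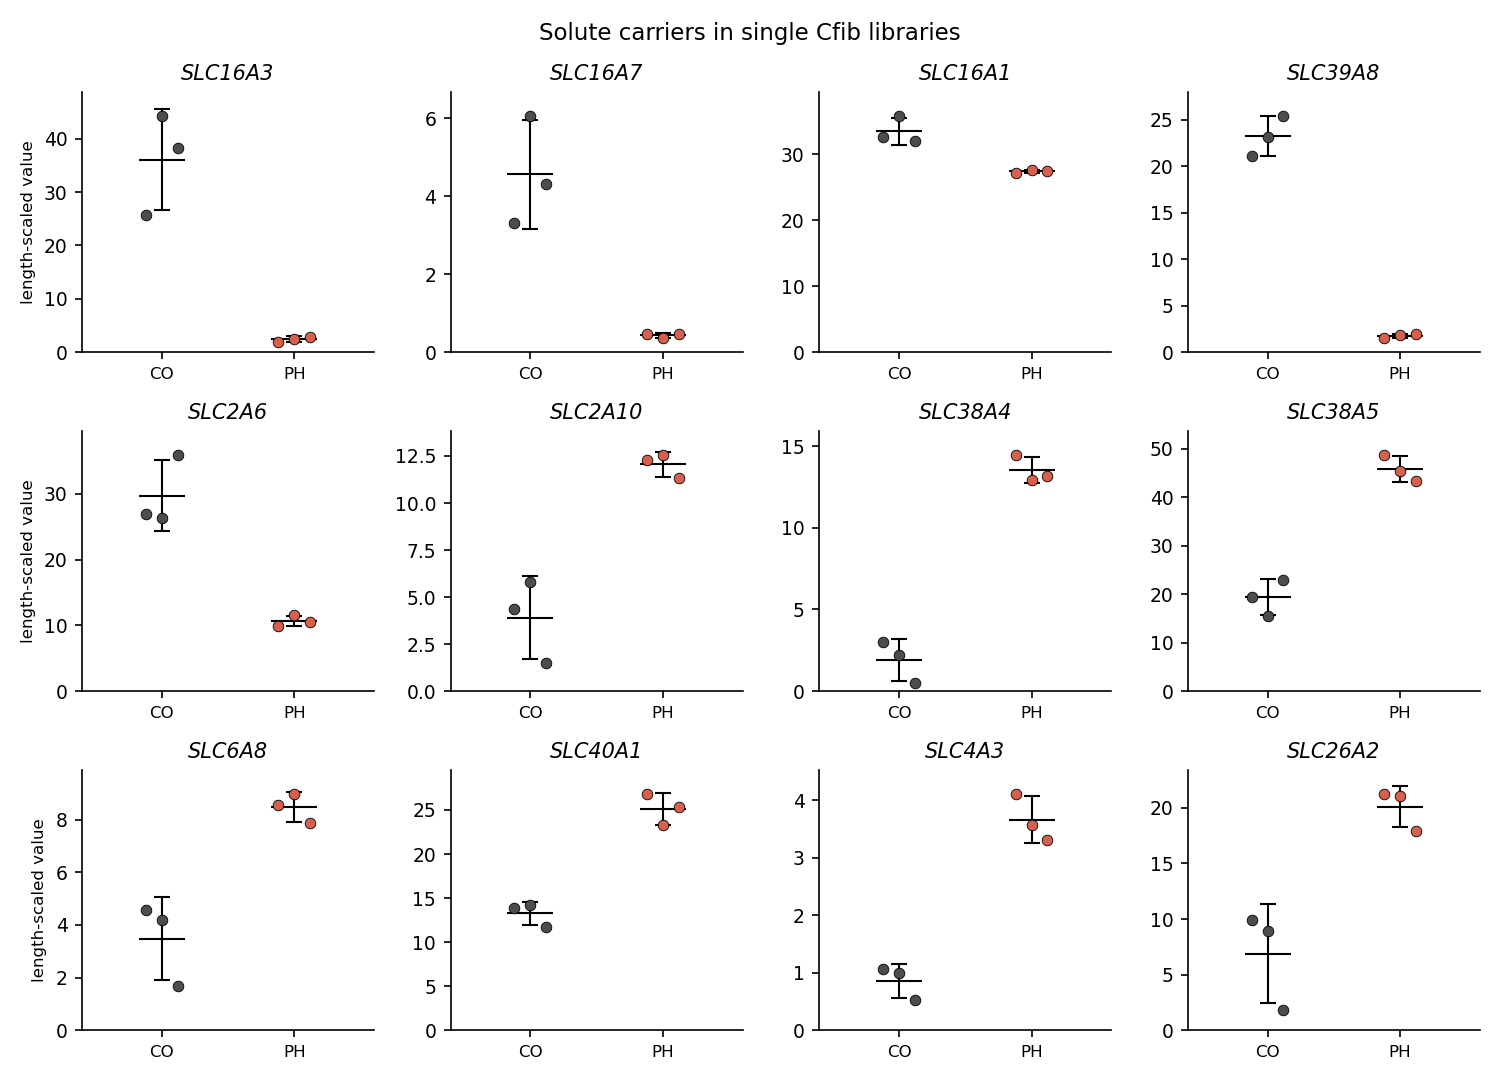
Length-scaled value (y axis, linear from 0) of 12 carriers in each of the 3 CO (grey) and 3 PH (red) Cfib libraries, with the mean and SD. SLC16A3, SLC16A7 and SLC39A8 are near 0 in PH, and 1 CO library is low in SLC2A10, SLC38A4, SLC6A8, SLC4A3 and SLC26A2.

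Amino acid carriers rose in 6 of 7 cases. SLC38A4 (SNAT4) had 2.98, 2.22 and 0.509 in CO and 14.5, 12.9 and 13.2 in PH, 7.12-fold higher (a log2 fold change of 2.44 ± 0.34, limma adjusted p = 0.00069), and SLC38A5 (SNAT5, a glutamine transporter) had 19.5, 15.6 and 23 in CO and 48.8, 45.4 and 43.3 in PH (a log2 fold change of 1.22 ± 0.14, limma adjusted p = 0.000263). The creatine importer SLC6A8 had 4.57, 4.17 and 1.66 in CO and 8.56, 8.99 and 7.89 in PH (a log2 fold change of 1.16 ± 0.28, limma adjusted p = 0.00671). SLC1A4 (ASCT1) rose from 24.6 ± 7.88 to 44.9 ± 0.689, SLC43A1 (LAT3) from 70.01 ± 2.43 to 99.7 ± 4.98 and SLC1A5 (ASCT2) from 119 ± 10.4 to 164 ± 5.29. After rescaling the log2 fold change of SLC1A5 was 0.18 and it was no longer called (limma adjusted p = 0.0823). SLC36A4 (PAT4) fell from 14.5 ± 1.61 to 10.8 ± 0.473. Of the amino acid response 4 of 15 genes were listed: ATF5 rose by 0.72, TRIB3 by 1.03 and CHAC1 by 0.44, and SHMT2 fell by 0.44. Of genes of lysosomal sensing 3 of 20 were listed, with TFEB higher by 0.69 and RRAGA and RRAGD lower by 0.24 and 0.48.

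Ion carriers rose in 6 of 7 cases with a median of 1.18, which was 1.003 after rescaling with the same 6 called higher. SLC4A3 (AE3) had 1.06, 0.993 and 0.517 in CO and 4.11, 3.57 and 3.31 in PH (a log2 fold change of 1.34 ± 0.14, limma adjusted p = 0.000202) and SLC26A10 0.336, 0.231 and 0.263 in CO and 2.44, 1.73 and 1.58 in PH (a log2 fold change of 1.18 ± 0.12, limma adjusted p = 0.000188). For SLC26A10 the ratio of the means was 6.92, which shows how far the log2(value + 1) scale understates low values. SLC12A2 (NKCC1) had 4.52, 5.55 and 1.39 in CO and 10.2, 9.64 and 8.68 in PH (a log2 fold change of 1.24 ± 0.36, limma adjusted p = 0.0141) and SLC26A2, the sulfate importer, 9.94, 8.93 and 1.83 in CO and 21.3, 21.1 and 18 in PH (a log2 fold change of 1.64 ± 0.50, limma adjusted p = 0.0168). CO library 3 was the lowest in both, and also in SLC4A3. SLC8B1 (NCLX) rose from 9.12 ± 0.988 to 15.7 ± 1.18 and SLC26A11, another sulfate transporter, from 9.17 ± 0.128 to 14.3 ± 0.672. SLC9A5 (NHE5, of recycling endosomes) fell from 8.48 ± 1.5 to 4.87 ± 0.564. The 2 listed of 20 symbols of cotransporter kinases and carbonic anhydrases, CAB39 and CHP1, fell by 0.43 and 0.40.

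Among 7 metal carriers SLC39A8 (ZIP8) fell and the others rose. It had 21.1, 23.2 and 25.4 in CO and 1.49, 1.8 and 1.96 in PH, 13.3 times lower, with a log2 fold change of −3.14 ± 0.11, limma adjusted p = 3.05e-06. SLC40A1 (ferroportin) had 13.8, 14.2 and 11.7 in CO and 26.9, 23.2 and 25.3 in PH (a log2 fold change of 0.88 ± 0.10, limma adjusted p = 0.000231). SLC11A1 (NRAMP1) was low, at 0.287, 0.458 and 0.552 in CO and 1.79, 1.71 and 1.31 in PH, and its rise went with that of the listed macrophage markers. SLC39A13 (ZIP13) rose from 39.6 ± 4.98 to 59.7 ± 1.69. SLC39A1 (ZIP1), SLC39A7 (ZIP7) and SLC31A1 (CTR1) were called higher by 0.31, 0.36 and 0.27, but after rescaling stood at 0.03, 0.07 and −0.02 and were not called, so that SLC31A1 changed direction. FTH1 (ferritin) fell by 1.71 and the reductase STEAP3 rose by 1.25, the 2 listed genes of metal handling.

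With the values taken as scaled by length, the 5 members with the highest mean in PH were SLC1A5 (164 ± 5.29), SLC39A1 (153 ± 4.95), SLC39A7 (116 ± 1.71), SLC31A1 (101 ± 0.793) and SLC43A1 (99.7 ± 4.98). In CO the same 5 were highest, with SLC39A1 (123 ± 8.45) and SLC1A5 (119 ± 10.4) overlapping at the top.

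SLC29A2 (ENT2), the nucleoside carrier of the table, rose from 2.35, 2.45 and 1.42 to 5.08, 4.7 and 5.05 (a log2 fold change of 0.97 ± 0.15, limma adjusted p = 0.000996), while DCK and TK1, kinases of nucleoside salvage, fell by 0.84 and 1.42. Of the other 14 members 10 rose. SLC46A3, of lysosomes, went from 6.03, 3.89 and 3.09 to 12.3, 11.6 and 11 (a log2 fold change of 1.28 ± 0.20, limma adjusted p = 0.00099) and SLC17A9 (VNUT, which loads vesicles with nucleotides) from 14.2 ± 0.847 to 29.2 ± 0.551. SLC13A4 (a sulfate cotransporter) rose by 0.81 on the log2 scale. It was counted here in both tables, although the sulfate carriers SLC26A2 and SLC26A11 were counted as ion carriers. The fatty acid transport proteins SLC27A1 and SLC27A4 rose by 0.51 and 0.58, and the folate carriers SLC46A1 and SLC19A1 by 0.58 and 0.35 on the log2 scale. SLC35D2 and SLC35F5 (nucleotide sugar transporter family) rose by 0.39 and 0.40 and SLC37A4 (the glucose-6-phosphate carrier of the ER) by 0.23, which turned to −0.05 after rescaling. After it SLC46A1, SLC19A1, SLC35D2 and SLC35F5 were not called either (log2 fold changes of 0.36, 0.09, 0.13 and 0.12). The call of SLC37A4 was also lost without PH library 2 or 3 (limma adjusted p up to 0.0513). The 4 that fell were SLC46A2 by 0.72, the multivitamin carrier SLC5A6 by 0.61, SLC22A4 (OCTN1, an ergothioneine carrier) by 0.47 and the GDP-fucose carrier SLC35C1 by 0.18. For SLC35C1 the limma adjusted p of 0.047 rose above 0.05 without CO library 1 or 3 and without any 1 of the PH libraries (up to 0.15). The scaffold SLC9A3R2 rose from 6.14 ± 1.71 to 20.1 ± 1.69 and SLC9A3R1 fell from 7.74 ± 0.374 to 5.09 ± 0.514.

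The tables shared 32 members, 26.7% of those in ARVM and 69.6% of those in Cfib. They compare different cells, species, treatments and units, and share no samples. Directions were equal for 16 of the 32, beside 656 of all 1178 shared symbols (55.7%): 15 rose in both, 1 (Slc5a6) fell in both, 8 were higher in ARVM and lower in Cfib, and 8 the reverse. Slc2a6, 1 of the 8 higher in ARVM, was not called there. With the Cfib values rescaled 15 were equal, SLC31A1 having changed sign. Slc39a8, Slc16a3, Slc16a7 and Slc26a10 differed most between the tables. Slc16a3 was 3.26 in PH-CM-treated ARVM and −3.41 in PH Cfib on the log2 scale, Slc16a7 was 3.41 and −1.93, Slc16a13 was 0.53 and −0.28, and Slc39a8 was 4.51 and −3.14. In the opposite corner Slc26a10 was −3.93 and 1.18, Slc4a3 was −1.02 and 1.34, Slc40a1 was −1.27 and 0.88, Slc12a2 was −0.77 and 1.24, Slc46a3 was −0.77 and 1.28 and Slc6a8 was −0.52 and 1.16. Members higher in both included Slc2a10 (5.41 and 1.54), Slc38a4 (1.40 and 2.44), Slc1a4 (1.33 and 0.89), Slc26a2 (1.30 and 1.64), Slc8b1 (1.45 and 0.72), Slc39a13 (1.11 and 0.59), Slc46a1 (1.83 and 0.58), Slc17a9 (1.39 and 0.99) and Slc13a4 (1.45 and 0.81). In ARVM the call of Slc13a4 was lost without PH-CM library ha209 or ha211 (limma adjusted p up to 0.0553) and by DESeq2.

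**Figure D5:**
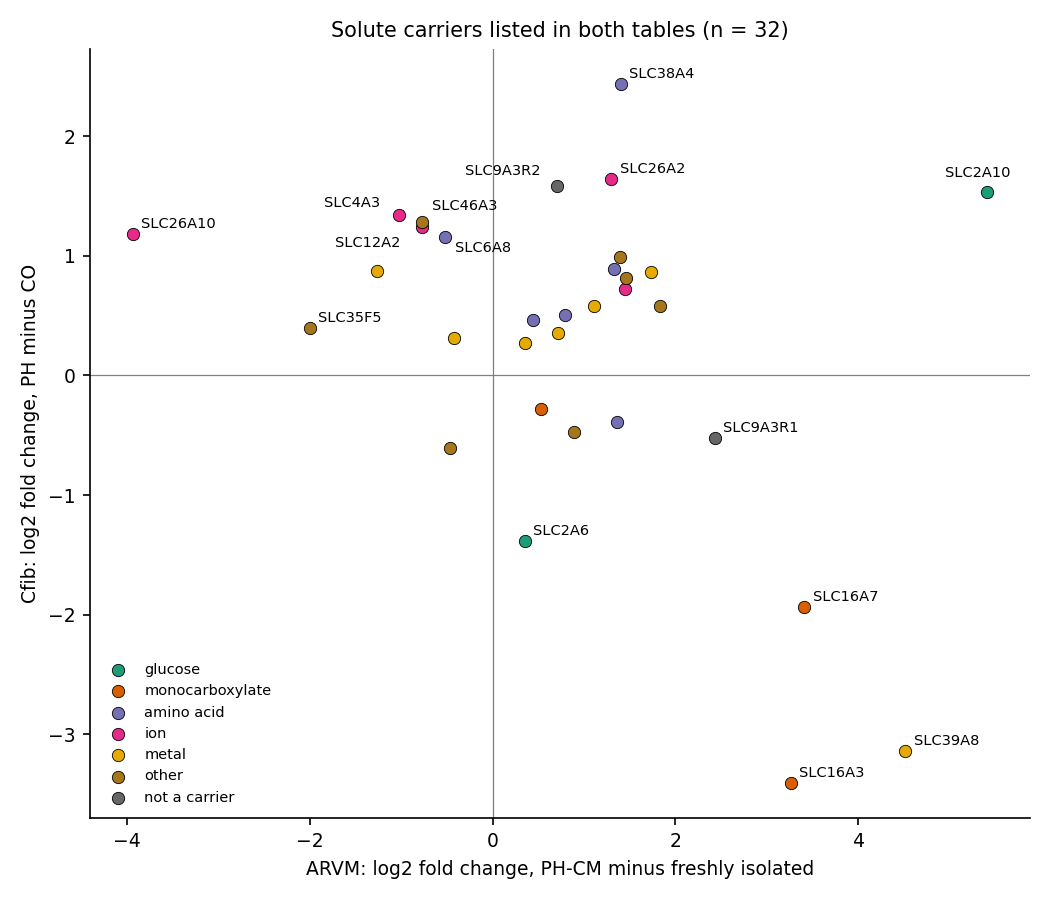
Log2 fold change of the 32 solute carriers listed in both tables, ARVM (x axis, PH-CM minus freshly isolated) against Cfib (y axis, PH minus CO), coloured by substrate class. Points at the lower right (SLC16A3, SLC16A7, SLC39A8) were higher in PH-CM-treated ARVM and lower in PH Cfib, and 15 points lie at the upper right.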

How the data were processed

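RNA sequencing of 12 libraries was used, 3 each of CO Cfib, PH Cfib, freshly isolated ARVM and ARVM after 7 days in PH-CM. The authors depleted ribosomal RNA, aligned reads to bosTau8 or rn6 with HISAT2 and StringTie, normalized with the geometric method of DESeq2 and deposited only genes selected at p under 0.05. The deposited ARVM signal is read counts divided by a size factor per library, and 100% of the values were whole multiples of the library's step within 0.01 reads. The deposited Cfib signal was taken to be scaled by gene length and library. Its unit is not named and the scaling was not tested, so no reads or depth could be had. Adjusted p-values are therefore over selected genes and tables were fitted separately.

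Groups were compared with limma 3.58.1 in R 4.3.3 with a mean-variance trend, fitted to log2(value + 1), with Benjamini-Hochberg adjustment over each table and a threshold of 0.05, and summaries were made with Python 3.11.15, pandas 2.3.3 and numpy 2.4.6. The fits were tested on simulated data. Alternatives were pseudocounts of 0.1 and 10, a minimum mean (50 in ARVM, 5 in Cfib), scaling to the median ratio of each library, a fit with no trend, a minimum log2 fold change of 1, each library left out, edgeR 4.0.16 and DESeq2 1.42.0 on the recovered ARVM reads, and for Cfib a block for replicate number and the PH libraries averaged. The carriers, their substrate classes, 7 lists of partner genes, 7 marker lists and 32 core carriers were chosen with earlier results of these data known, and a few class assignments were completed once the listed symbols were seen. Named were all Cfib members and, in ARVM, the 3 largest called rises and falls per class whose larger group mean reached 10, the core carriers listed (22), the 5 highest means of each group and members in both tables. Promoter sequences come from RefSeq (GRCr8), which is not the build of the files, and are used for their letters only. Bovine sequence was not used here. Some members are counted but not reported here by name.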

Additional observations from a re-analysis of the deposited data

How the results depend on the processing

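In ARVM the number of members called was 116. It lay between 92 (minimum mean of 50, fewer genes tested) and 118 (pseudocount 10), with 115 by edgeR and 112 by DESeq2. Over all 7052 listed genes 6882 were called, 6875 with pseudocount 10, 6815 by edgeR and 6668 by DESeq2. With the minimum mean 5976 of 6121 genes were called. No ARVM member changed direction under any alternative. Calls with a log2 fold change of at least 1 were 72, 52 higher and 20 lower. Leaving out single libraries gave 105 to 114 called, 67 to 75 higher and 38 to 40 lower, beside 6452 to 6695 of all 7052 genes. In Cfib, 46 were called, beside 2063 of all 2115 genes. Leaving out single libraries gave 43 to 45 members called, 32 to 33 higher and 11 to 12 lower, beside 1910 to 2052 of all genes. Calls with a log2 fold change of at least 1 were 14, 10 higher and 4 lower, and averaging the PH libraries left 20 called, 15 higher and 5 lower, with 1 sample in place of 3. Rescaling by the median of ratios left 37 called and turned SLC31A1 (−0.017) and SLC37A4 (−0.046). The minimum mean of 5 tested fewer genes and called 33 members, beside 1535 of 1576 genes.

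CO and PH share replicate numbers, but no label ties equal numbers to an animal or batch, so the numbers were not taken to pair them. Deviations of libraries with the same number correlated at 0.258, 0.0312 and 0.259. Libraries with different numbers were not correlated, so these values cannot decide whether the numbers pair. With a replicate block 45 Cfib members were called, 33 higher and 12 lower, SLC35C1 being lost, and 1983 of all genes in place of 2063. No paired analysis was possible for ARVM because the groups share no numbers. The unknown depth in Cfib leaves its lowest values without counting intervals.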
